A study of Mus musculus with 6 samples.

Results

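The genes described here are those of heat shock proteins, molecular chaperones and their co-chaperones in injured mouse kidney. They were chosen by gene symbol alone, with 1 pattern that takes the HSP70, HSP110, HSP90 and small heat shock protein families, the J-domain proteins, the TRiC and mitochondrial chaperonins, prefoldin, BAG proteins, HSP90 co-chaperones and the FK506-binding and cyclophilin prolyl isomerases. The pattern took 57 of the 7340 genes in the deposited table. RNA was sequenced from 6 kidney samples of wild-type mice, all after ischaemia-reperfusion injury (IRI), a loss and return of blood flow. In 3 samples IRI was combined with MK-8617, which inhibits the HIF prolyl hydroxylases and so stabilises hypoxia-inducible factor (HIF), and the other 3 had IRI alone. The comparison is of injured kidneys that did and did not receive MK-8617, and no uninjured kidney was analysed here. The labels give no strain, age, dose or time, although column names of the table carry the tag 1d. They do not say whether replicates are separate animals, and p-values then reflect only the spread among 6 samples, which may be technical.

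Chaperones bind unfolded or newly made proteins and use cycles of ATP binding, or passive holding, to keep them from aggregating until they fold. HSP70 works with J-domain proteins, which deliver clients and start ATP hydrolysis, and with BAG proteins, which release the nucleotide. HSP90 receives clients through adaptor co-chaperones, while prefoldin hands actin and tubulin to the ring-shaped TRiC chaperonin. In cells under heat or oxidative stress the heat shock factor HSF1 binds inverted repeats of the bases nGAAn, called heat shock elements, before the inducible HSP70 and small heat shock protein genes. In kidney, inducible HSP70 and HSP25 are best known from tubular cells after ischaemia.

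Only genes that the authors had found to differ, at a p under 0.05, are in the table, so every member was already selected as different. The mouse annotation holds 143 symbols that fit the pattern, 18 of them pseudogenes, and 69 that are not pseudogenes are not listed and were not analysed here. Among these 69 are Hsf1 and Hsf2, all 3 HSP90 genes, the constitutive HSP70 gene Hspa8, the endoplasmic reticulum HSP70 gene Hspa5, Hsph1, Dnajb1 and the HSP60 gene Hspd1, and no direction is given for them. All 57 listed members passed the filter on low values.

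Promoter sequence of the members whose values are described below was taken from RefSeq (GRCm38.p6), 250 bases before to 50 after each gene start, and 46 of the 57 members had an entry. The windows shown are 30 bases long, read 5′ to 3′ on the gene's strand, with a heat shock element of 2 inverted units (GAANNTTC or TTCNNGAA, where N is any base) in capitals. They are shown because they belong to the HSP70 pair that fell, to a small heat shock protein that fell and to 1 that rose, and to 2 HSP90 partners and a TRiC subunit that fell.
Hspa1a, chr17:34972242-34972271, minus strand: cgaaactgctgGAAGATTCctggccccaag
Hspa1b, chr17:34959324-34959353, minus strand: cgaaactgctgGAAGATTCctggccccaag
Hspb1, chr5:135887791-135887820, plus strand: cttcaacaagaGAAGTTTCcagatgggggc
Hspb6, chr7:30553170-30553199, plus strand: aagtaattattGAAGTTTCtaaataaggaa
Cdc37, chr9:21150086-21150115, minus strand: tcggcgggaacTTCCAGAAggcctcaccac
Fkbp4, chr6:128438789-128438818, minus strand: ccgcttctctaGAAAGTTCtccgctcccgc
Cct5, chr15:31601862-31601891, minus strand: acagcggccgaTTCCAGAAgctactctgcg

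Of the 46 members with an entry, Hspe1 alone had a heat shock element of 3 alternating units. This longer element is the motif above with a further inverted unit after 2 bases. The Hspe1 window is shown with the 3 units of the first match in capitals.
Hspe1, chr1:55088051-55088080, plus strand: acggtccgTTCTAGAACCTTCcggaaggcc

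The windows of Hspa1a and Hspa1b were identical, 104 bases before each gene start. The heat shock element of 2 units, which reads the same on both strands, was found in 14 of the 46 members (30.4%), against 14.1% of the 5035 tested genes of the table with an entry and 17.0% of all 27025 genes with one. It was found in 8 of 27 members that fell, 2 of 7 that rose and 4 of 12 that did not pass the test, shares of 29.6%, 28.6% and 33.3%. The element of 3 units, which contains the shorter one, was in 0.662% of all genes with an entry. The core of the HIF binding motif (ACGTG or GCGTG, either strand) was found in 34 members (73.9%), against 66.7% of the tested genes and 46.7% of all genes. It stood in the promoters of all 7 members that rose (Hspb6, Dnajb9, Dnajb5, Dnajb2, Tcp1, Bag2 and Bag3), of 17 of 27 that fell and of 10 of 12 that did not pass the test. A match describes the letters of a window and says nothing of binding.

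Chaperone transcripts were mostly lower with MK-8617. Of the 57 members 33 fell and 7 rose in the limma test over the whole table (adjusted p under 0.05), and 17 did not pass. Over all 6961 tested genes 38.7% fell, 35.7% rose and 74.3% did either, and the shares among the members were 57.9% lower and 12.3% higher, a contrast that was not tested. The median log2 fold change was -0.50 over the members and -0.31 over all tested genes. All 3 MK-8617 libraries lay below all 3 IRI libraries for 42 members (47.6% of tested genes) and above them for 10 (44.8%), which makes 52 without overlap (92.5% of tested genes). Together the members held 0.426% to 0.452% of the library total with MK-8617 and 0.590% to 0.626% with IRI alone, with totals inferred from the deposited FPKM. By the authors' deposited table an adjusted p under 0.05 was reached by 45 members, 9 higher and 36 lower. Of all 7340 listed genes 2664 were higher and 2992 lower at that threshold. All 40 members called here had the same direction there. Without MK-8617 replicate 3 the count that rose was 4, against 1650 of the 7061 genes tested in that setting. Of the 40 calls 26 held when any 1 library was left out.

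**Figure D1:**
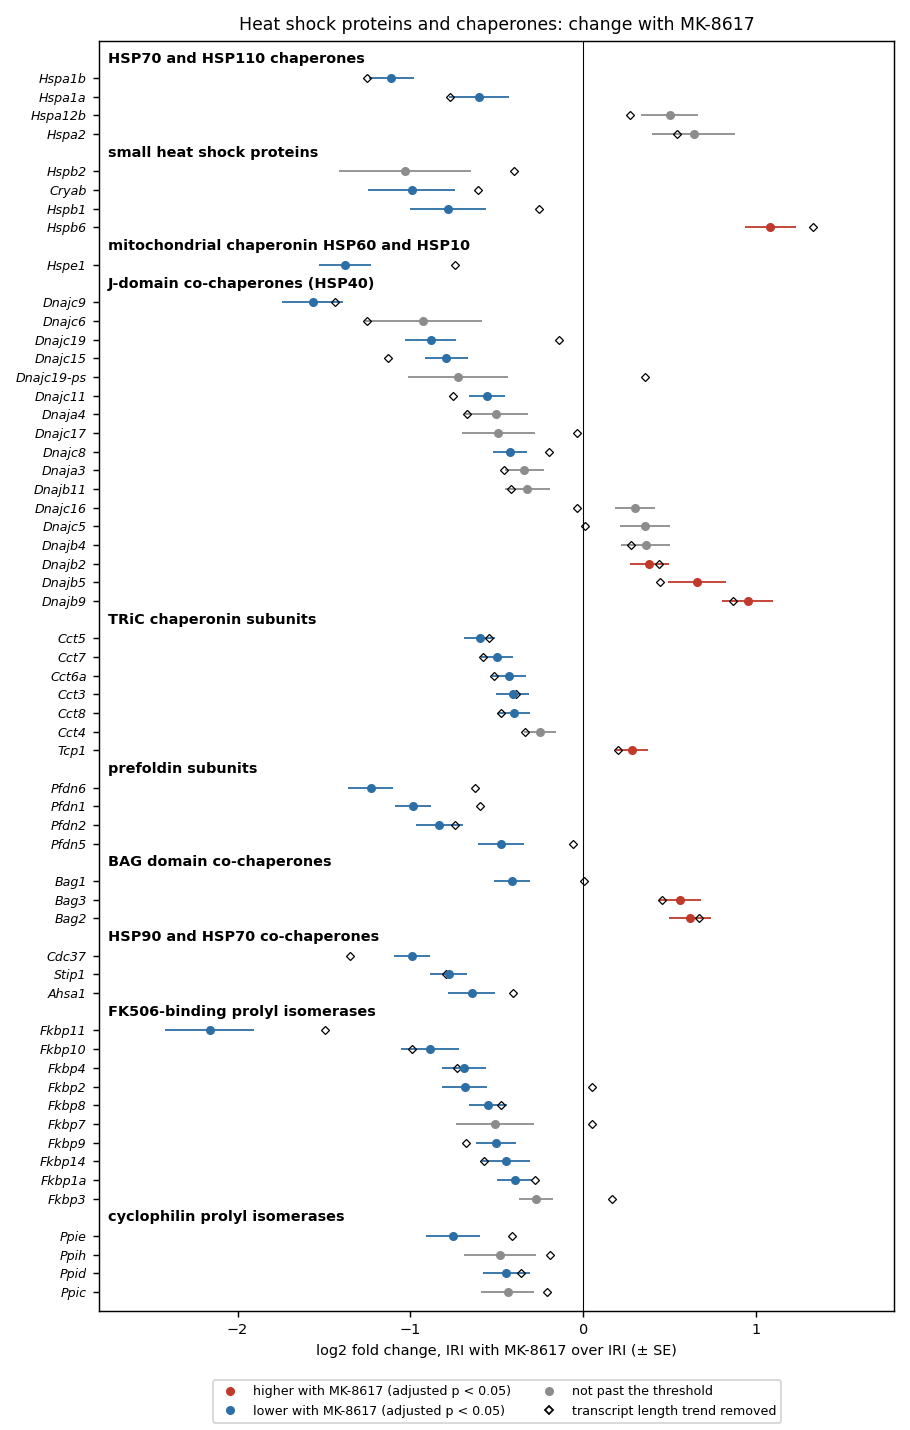
Log2 fold change, IRI with MK-8617 over IRI alone, of all 57 members by role (circles, bars ± SE of the limma fit), with the value after removal of the transcript length trend as an open diamond. The 33 members in blue fell, the 7 in red rose and the 17 in grey did not pass the test, and for short genes such as Hspe1 and Fkbp2 the diamond lies to the right of the circle.

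**Figure D2:**
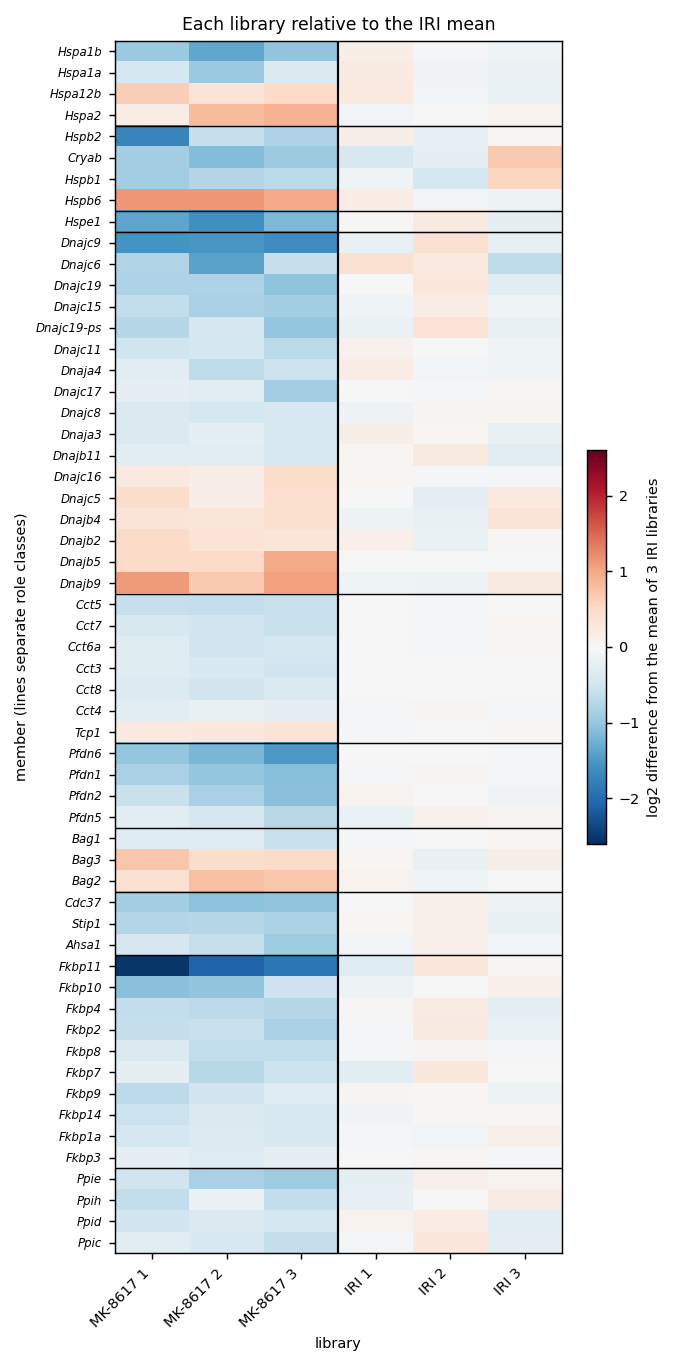
Log2 difference of each library from the mean of the 3 IRI libraries, on normalised reads plus 1, for every member in role order, MK-8617 libraries on the left. Blue dominates the MK-8617 columns in the prefoldin, HSP90 co-chaperone and FK506-binding classes, and IRI replicate 3 stands above the other IRI libraries for Cryab and Hspb1.

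Transcript length moved with the comparison across the whole table. With the tested genes cut into 5 equal bins by the length of the principal transcript, the bin of the shortest (57 to 1322 nucleotides) had a median log2 fold change of -0.74 and the bin of the longest 0.40. Chaperone transcripts are short, with a median of 1860 nucleotides against 2652 over the tested genes, and 44 of the 57 were shorter than that median. After the length trend was removed, 28 members fell (49.1%) and 5 rose (8.77%), with a median of -0.40, against 33.6%, 22.2% and -0.04 over the tested genes. With GC content removed as well, 27 members fell and 6 rose, against 32.9% and 22.9% of the tested genes. Removal of the length trend shifted the median of all tested genes by more than 0.1 and ended 12 of the 40 calls. These 12 were Bag1, Cryab, Dnajb5, Dnajc19, Dnajc8, Fkbp1a, Fkbp2, Hspb1, Pfdn5, Ppid, Ppie and Tcp1. The same removal brought Dnajc6, Dnaja4, Dnajb11, Dnaja3 and Cct4 past the threshold, all as lower. Of the 28 members that fell after it, 23 had also fallen before. The part of transcript length in these results was not tested further.

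**Figure D3:**
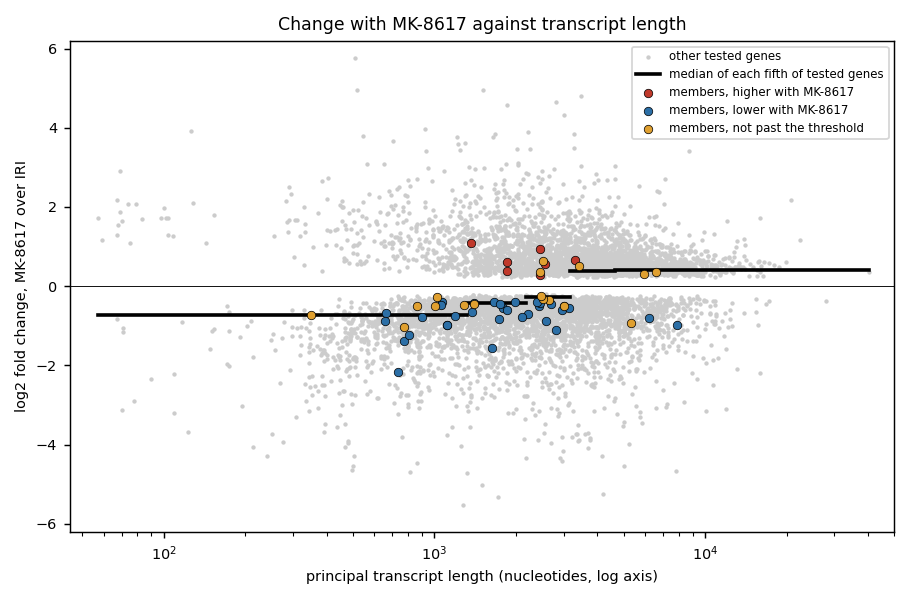
Log2 fold change (IRI with MK-8617 over IRI alone) against principal transcript length in nucleotides on a log axis, for members (coloured) and all other tested genes (grey), with the median of each of 5 length bins as a black line. The median is -0.74 in the shortest bin and 0.40 in the longest, and most members lie on the short side.

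The inducible HSP70 genes fell with MK-8617. Hspa1b (ENSMUSG00000090877, GRCm38 chr17:34956436-34959238) had 879, 667 and 839 normalised reads with MK-8617, against 1902, 1663 and 1573 with IRI alone. MK-8617 replicate 2 was lowest and the groups lay far apart, with a mean 2.15-fold lower and a log2 fold change of -1.11 ± 0.13 (SE, adjusted p = 0.000594). Its neighbour and near-copy Hspa1a (ENSMUSG00000091971, chr17:34969190-34972156) had 511, 363 and 540.2 normalised reads with MK-8617, against 827, 666 and 638 with IRI alone. Here too MK-8617 replicate 2 was lowest and the groups did not overlap, and the log2 fold change of Hspa1a was -0.60 ± 0.17 (SE, adjusted p = 0.0295). The Hspa1a call was lost when IRI replicate 1 (-0.49), MK-8617 replicate 1 (-0.67) or its replicate 2 (-0.43) was left out, while Hspa1b kept its call without any 1 library. By FPKM, which are scaled to gene length, Hspa1b made up 64.3 ± 1.95% of the pair with MK-8617 and 71.9 ± 0.91% in IRI alone (n = 3 each, SD). Of the 50-base windows of the Hspa1a transcript 60.4% recur in another gene, as do 62.3% of those of Hspa1b, mostly in the other of the pair, so the split between them is uncertain.

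The other listed HSP70 genes had higher means with MK-8617 but did not pass the limma test. By the authors' deposited table both were called higher (adjusted p = 0.039 for Hspa12b and 0.0497 for Hspa2). Of the alternative settings, that table included, Hspa12b passed in 7 and Hspa2 in 3. Hspa2, a family member best known from testis, had 88.1, 136 and 144 normalised reads with MK-8617, against 72.9, 75.6 and 81.5 with IRI alone. Hspa12b, a distant family member of endothelial cells, had 348, 281 and 318 normalised reads with MK-8617, against 264, 212 and 196 with IRI alone. For both genes all MK-8617 libraries lay above all IRI libraries, with log2 fold changes of 0.64 ± 0.24 (SE, adjusted p = 0.0811) for Hspa2 and 0.50 ± 0.16 (SE, adjusted p = 0.0502) for Hspa12b. The immediate early genes, which rise fast after many stimuli, moved the other way from Hspa1a and Hspa1b. Of 24 such genes 21 were tested, 18 rose (85.7%, against 35.7% of all tested genes) and 0 fell, with a median of 0.95. With the length trend removed 13 of these genes rose (61.9%, against 22.2%). Their summed level was 39424, 30372 and 44370.0 normalised reads with MK-8617, against 20473, 15806 and 23120 with IRI alone. Myc (log2 fold change 1.36), Junb (0.88) and Egr1 (1.47) had the smallest adjusted p among them.

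The small heat shock proteins, which hold unfolding proteins without ATP, split by gene. Hspb6 (ENSMUSG00000036854, chr7:30552178-30555443), which encodes HSP20, an actin-linked protein of muscle, was the member with the largest rise and had 394, 397 and 360.5 normalised reads with MK-8617, against 207, 171 and 166 with IRI alone. The groups were well apart, with a mean 2.12-fold higher with MK-8617 and a log2 fold change of 1.08 ± 0.15 (SE, adjusted p = 0.00111). Cryab (ENSMUSG00000032060, chr9:50751325-50756636), which encodes alpha-B crystallin, had 4537, 3838 and 4348 normalised reads with MK-8617, against 6283, 7043 and 13496 with IRI alone. IRI replicate 3 was about as high as the other IRI libraries together, the groups did not overlap, and the log2 fold change was -0.99 ± 0.25 (SE, adjusted p = 0.0178). Hspb1 (ENSMUSG00000004951, chr5:135887919-135889563), the mouse HSP25 gene, had 2007, 2203 and 2295 normalised reads with MK-8617, against 3449.9, 2734 and 5503 with IRI alone. It too was highest in IRI replicate 3, without overlap between groups, and its log2 fold change was -0.79 ± 0.22 (SE, adjusted p = 0.0273).

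Without IRI replicate 3 the log2 fold changes were -0.65 for Cryab and -0.50 for Hspb1, both still past the threshold. The calls of both genes were lost without MK-8617 replicate 1, 2 or 3 (Cryab -1.04, -0.92 and -1.01, Hspb1 -0.73, -0.80 and -0.83), and with the length trend removed (Cryab -0.61, Hspb1 -0.26). The summed level of 7 listed proximal tubule markers was 72864, 63233 and 64748 normalised reads with MK-8617, against 38771, 42398 and 15901 with IRI alone, so IRI replicate 3 was lowest where Cryab and Hspb1 were highest. In IRI replicates 1, 2 and 3 the listed thick ascending limb markers summed to 43449, 27483 and 45038 normalised reads. The listed distal and collecting duct markers summed to 7984, 7402 and 8576 in the same libraries. Both sums were highest in IRI replicate 3, unlike that of the proximal tubule markers. The part of tubular cell content in these results was not tested. In bulk tissue fewer cells of a type and less RNA per cell cannot be told apart. Hspb2, which lies head to head with Cryab on chromosome 9, had 10.2, 23.5 and 20.2 normalised reads with MK-8617, against 39.8, 31 and 37.4 with IRI alone. It did not overlap between groups but did not pass the test, with a log2 fold change of -1.03 ± 0.38 (SE, adjusted p = 0.0767). Exons of Cryab and Hspb2 overlap on opposite strands, over 17.0% of the Cryab bases and 30.2% of the Hspb2 bases. Counting is not stated to use strand, and the part of Cryab reads in the Hspb2 value was not tested. For Hspb1 58.9% of 50-base windows recur in another gene, chiefly the pseudogene Hsp25-ps1. By FPKM, Hspb6 was 3.25 ± 0.29% of the 4 small heat shock proteins with MK-8617 and 0.884 ± 0.35% in IRI alone (n = 3 each, SD).

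**Figure D4:**
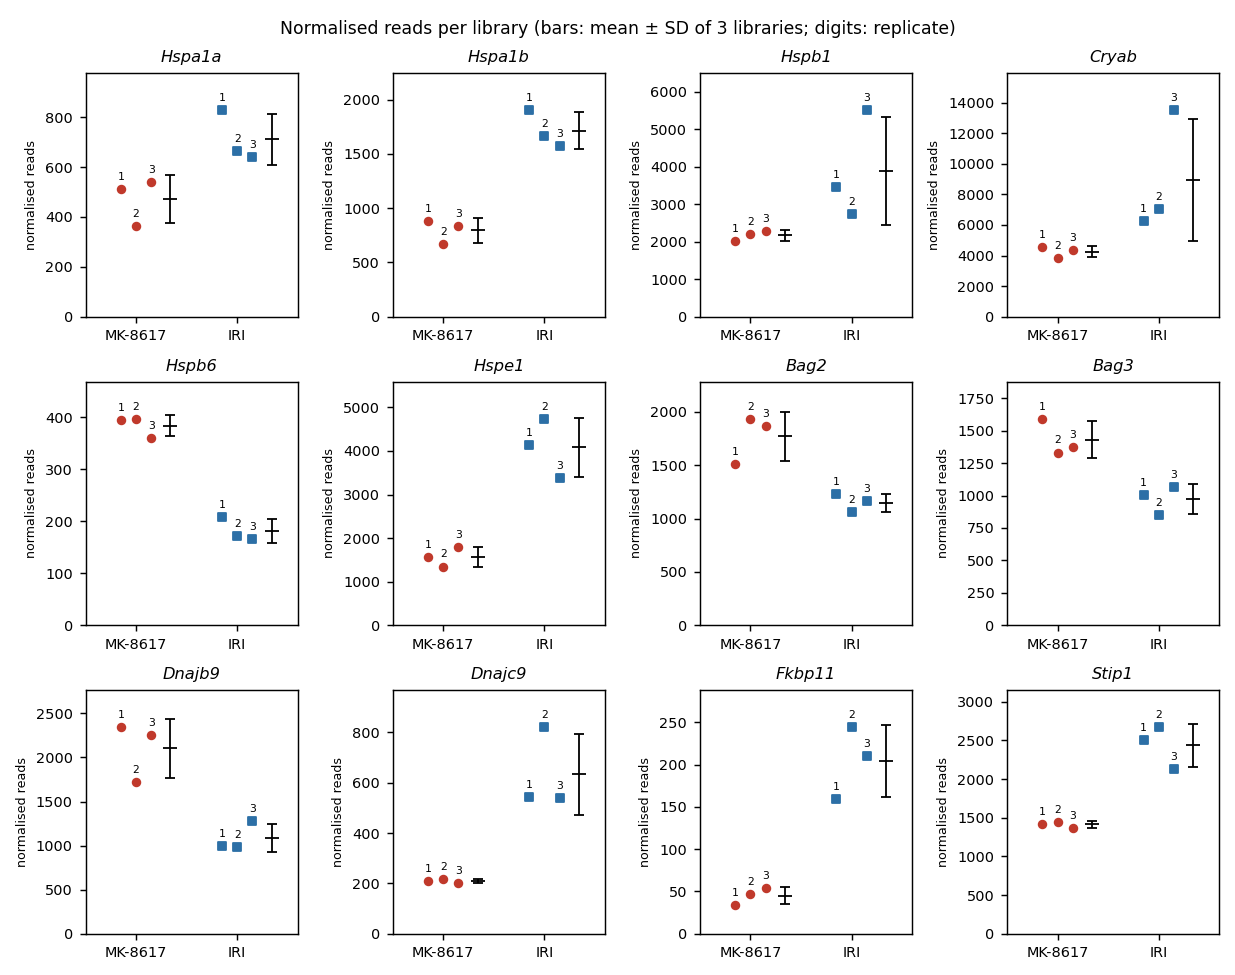
Normalised reads per library for 12 members, MK-8617 (red circles) left of IRI (blue squares), with replicate numbers at the points and the mean ± SD of 3 libraries as a bar beside each group. Hspb6, Bag2, Bag3 and Dnajb9 lie higher with MK-8617 and the other 8 genes lower, and IRI replicate 3 stands apart for Hspb1 and Cryab.

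Hspe1, the mitochondrial HSP10 that caps the HSP60 ring, had the third-largest fall of the members. It (ENSMUSG00000073676, chr1:55088132-55091307) had 1556, 1348 and 1796 normalised reads with MK-8617, against 4134, 4736 and 3379 with IRI alone. The highest MK-8617 library lay well under the lowest IRI library, the mean was 2.61-fold lower, and the log2 fold change was -1.38 ± 0.15 (SE, adjusted p = 0.000442). With the length trend removed the fall was -0.75 (adjusted p = 0.011), for a principal transcript of 774 nucleotides. Of its 50-base windows 36.1% recur in other genes, many of them annotated pseudogenes, and its HSP60 partner gene Hspd1 is not listed.

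The 17 J-domain genes were mixed, with 5 lower (29.4%), 3 higher (17.6%) and a median of -0.42. Over all tested genes 38.7% were lower and 35.7% higher, with a median of -0.31. With the length trend removed 7 of the 17 were lower (41.2%) and 2 higher (11.8%), with a median of -0.14. All tested genes then had 33.6% lower, 22.2% higher and a median of -0.04. Dnajc9, a co-chaperone of histones H3 and H4, had 211, 217 and 199.9 normalised reads with MK-8617, against 543, 819.8 and 539 with IRI alone. IRI replicate 2 was highest, the MK-8617 libraries were nearly equal, and the log2 fold change was -1.57 ± 0.17 (SE, adjusted p = 0.000489). All 15 proliferation genes were tested, 14 fell (93.3%, against 38.7% of all tested genes) and 0 rose, with a median of -2.41. Those with the smallest adjusted p were Uhrf1 (log2 fold change -3.75), Mcm3 (-2.78) and Mcm2 (-2.32). Their summed level was 3778, 3869 and 3920.5 normalised reads with MK-8617, against 10239.8, 22619 and 11045 with IRI alone, so IRI replicate 2 was highest there too. The part of proliferating cells in the fall of Dnajc9 was not tested.

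Of the J-domain genes with mitochondrial products, Dnajc15, Dnajc19 and Dnajc11 fell. Dnajc15, a protein of the inner membrane import motor, had 557, 488 and 473 normalised reads with MK-8617, against 821, 1004 and 813 with IRI alone, with no overlap and a log2 fold change of -0.79 ± 0.12 (SE, adjusted p = 0.00211). Dnajc19, a relative of the same motor, had 634, 633 and 533 normalised reads with MK-8617, against 1114, 1331 and 907 with IRI alone. The groups did not overlap and the log2 fold change was -0.88 ± 0.15 (SE, adjusted p = 0.00298), but with the length trend removed it was -0.14 and not past the threshold. Dnajc11, which is linked to the cristae-forming complex, had a log2 fold change of -0.56 ± 0.10 (SE, adjusted p = 0.00474). Dnaja3, a mitochondrial HSP70 partner, did not pass the test (-0.34, adjusted p = 0.0556), but did with the length trend removed (-0.46, adjusted p = 0.0178). Dnajc8, a splicing-associated member, fell by 0.42 on the log2 scale, and not with the length trend removed (-0.20). Of the Dnajc19 windows 32.0% recur elsewhere, including in the listed pseudogene Dnajc19-ps, whose own log2 fold change was -0.72 (adjusted p = 0.1).

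Dnajb9 was the J-domain gene with the largest rise. It encodes ERdj4, an endoplasmic reticulum co-chaperone induced in the unfolded protein response, and had 2340.0, 1724 and 2251 normalised reads with MK-8617, against 1000.4, 986 and 1275 with IRI alone. The lowest MK-8617 library lay above the highest IRI library, the mean was 1.94-fold higher and the log2 fold change was 0.95 ± 0.15 (SE, adjusted p = 0.00215). Dnajb2, which couples HSP70 clients to the proteasome, had 1514, 1367 and 1331 normalised reads with MK-8617, against 1187, 949 and 1105 with IRI alone. Its groups did not overlap and its log2 fold change was 0.38 ± 0.11 (SE, adjusted p = 0.034), a call lost without IRI replicate 2 (0.29) or without MK-8617 replicate 1 (0.33), 2 (0.40) or 3 (0.42). Dnajb5 had 296, 299 and 419 normalised reads with MK-8617, against 210.1, 209.5 and 213 with IRI alone. MK-8617 replicate 3 was highest, the IRI libraries were nearly equal, and the log2 fold change was 0.66 ± 0.17 (SE, adjusted p = 0.018), a call lost without IRI replicate 1 (0.66), without MK-8617 replicate 3 (0.49) and with the length trend removed (0.45).

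The other 7 J-domain genes did not pass the test. Dnajc6, the auxilin that uncoats clathrin vesicles, Dnaja4, Dnajc17 and the endoplasmic reticulum member Dnajb11 (ERdj3) had negative log2 fold changes, between -0.93 for Dnajc6 and -0.32 for Dnajb11. Dnajc16, Dnajc5, a synaptic vesicle chaperone, and Dnajb4 had positive ones, between 0.30 for Dnajc16 and 0.36 for Dnajb4. With the length trend removed Dnajc6 (-1.25), Dnaja4 (-0.675) and Dnajb11 (-0.42) did pass, all lower. Of 29 genes of endoplasmic reticulum folding and the unfolded protein response 13 were tested, 5 rose (38.5%) and 3 fell (23.1%). Their median was 0.26. Over all tested genes 35.7% rose and 38.7% fell, with a median of -0.31. With the length trend removed the list median was -0.06, and 4 rose (30.8%) and 3 fell (23.1%). All tested genes then had 22.2% higher, 33.6% lower and a median of -0.04. The list included Ero1l, an oxidase of disulphide formation that is also a HIF target (log2 fold change 1.23). Also in it were Xbp1, the transcription factor that induces Dnajb9 (0.98), and Pdia5, a disulphide isomerase (-1.02).

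Most listed subunits of TRiC, the chaperonin that folds actin and tubulin, fell by similar amounts, and Tcp1 did not. In the order of their log2 fold changes these were Cct5 -0.60 ± 0.09, Cct7 -0.50 ± 0.09, Cct6a -0.43 ± 0.10, Cct3 -0.41 ± 0.10 and Cct8 -0.40 ± 0.09 (SE), with adjusted p between 0.00171 and 0.0129. Cct4 did not pass (-0.25, adjusted p = 0.0777), but did with the length trend removed (-0.34, adjusted p = 0.0191). Cct5, the epsilon subunit, had 69.4, 68.4 and 70.7 FPKM with MK-8617, against 108, 105 and 107 with IRI alone. Its libraries were close together within each group and the groups lay far apart. Tcp1, the alpha subunit, had 43.8, 44.3 and 46.8 FPKM with MK-8617, against 36.7, 37.7 and 37.8 with IRI alone. All MK-8617 libraries lay above all IRI libraries, and the log2 fold change on normalised reads was 0.28 ± 0.09 (SE, adjusted p = 0.0464). That call lay close to the threshold and was lost without each of the 6 libraries (0.26 to 0.30) and with the length trend removed (0.20), and the Cct6a and Cct8 calls were lost without MK-8617 replicate 2 (-0.38 and -0.36), which left 3 subunits lower.

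By FPKM, Tcp1 made up 14.6 ± 0.62% of the 7 listed subunits with MK-8617 and 9.30 ± 0.19% with IRI alone, and Cct5 made up 22.5 ± 0.42% with MK-8617 and 26.5 ± 0.24% with IRI alone (n = 3 each, SD). Exons of Tcp1 overlap those of other genes over 16.9% of their bases. These are Acat3 and Mrpl18 on the opposite strand and Gm26130 on its own strand (2.74%). Acat3 was higher with MK-8617 (log2 fold change 0.82) and Mrpl18 lower (-0.50), and the part of reads from overlapping genes in the Tcp1 value was not tested. Exons of Cct6a overlap Psph, which was lower (log2 fold change -1.16), over 15.3% of their bases, counting a small RNA gene on its own strand.

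Prefoldin, the 6-subunit holder that passes nascent actin and tubulin to TRiC, had 4 listed subunit genes. All 4 fell, against 38.7% of all tested genes, with a median of -0.91. Pfdn6 had 26.5, 23.3 and 19 FPKM with MK-8617, against 55, 54.4 and 52.7 with IRI alone. Pfdn1 had 54.2, 48.1 and 45.3 FPKM with MK-8617, against 96.8, 104 and 95 with IRI alone. Pfdn2 had 25.4, 20.8 and 17.9 FPKM with MK-8617, against 40.9, 38 and 35.8 with IRI alone. For all 3 the lowest IRI library lay far above the highest MK-8617 library, with log2 fold changes on normalised reads of -1.23 ± 0.13 (SE, adjusted p = 0.000402) for Pfdn6, -0.99 ± 0.10 (SE, adjusted p = 0.000364) for Pfdn1 and -0.83 ± 0.14 (SE, adjusted p = 0.00254) for Pfdn2. Pfdn5 had 73.2, 66 and 54.6 FPKM with MK-8617, against 80.6, 97.7 and 93.9 with IRI alone, the groups again not overlapping. Its log2 fold change of -0.48 ± 0.13 (SE, adjusted p = 0.0269) was lost as a call without IRI replicate 2 (-0.42) or MK-8617 replicates 2 (-0.50) or 3 (-0.36), and was -0.06 with the length trend removed. Under that removal Pfdn6 was -0.63, Pfdn1 -0.60 and Pfdn2 -0.74, each still past the threshold. Pfdn2 shares 27.6% of its exon bases with Klhdc9 on the opposite strand.

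**Figure D5:**
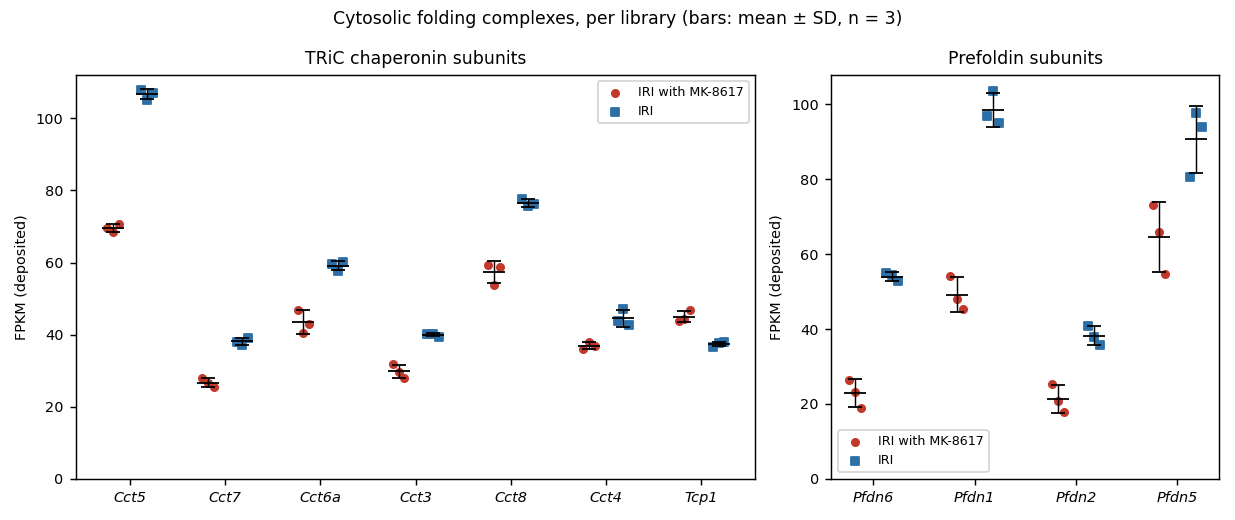
FPKM per library of the 7 listed TRiC subunits and the 4 listed prefoldin subunits, MK-8617 (red) left of IRI (blue), with the mean ± SD of 3 libraries as bars. Every subunit lies lower with MK-8617 in all 3 libraries except Tcp1, which lies higher in all 3.

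The BAG proteins, nucleotide exchange factors of HSP70, divided. Bag2, an inhibitor of the ubiquitin ligase CHIP, had 1510.2, 1934 and 1866 normalised reads with MK-8617, against 1228, 1058 and 1162 with IRI alone. Bag3, which joins HSP70 to small heat shock proteins and to autophagy, had 1591, 1332 and 1372 normalised reads with MK-8617, against 1002, 847 and 1069 with IRI alone. In both genes all MK-8617 libraries were above all IRI libraries, with log2 fold changes of 0.62 ± 0.12 (SE, adjusted p = 0.00571) for Bag2 and 0.56 ± 0.12 (SE, adjusted p = 0.009) for Bag3. Both calls held without any 1 library. Bag1, which links HSP70 to the proteasome, had 3301, 3285 and 2793 normalised reads with MK-8617, against 4039, 4109.7 and 4287 with IRI alone. The groups did not overlap and the log2 fold change was -0.41 ± 0.10 (SE, adjusted p = 0.018), but its call was lost when MK-8617 replicate 3 was left out (-0.33), and the value was 0.003 after removal of the length trend. Bag3 and its HSP70 partners Hspa1a and Hspa1b thus had opposite signs in the same libraries.

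All 3 listed co-chaperones of the HSP90 cycle fell, against 38.7% of all tested genes. Cdc37, which brings protein kinases to HSP90, had 1615, 1423 and 1478 normalised reads with MK-8617, against 2989, 3284 and 2722 with IRI alone. The groups were far apart, with a mean 1.99-fold lower and a log2 fold change of -0.99 ± 0.11 (SE, adjusted p = 0.000407). Stip1, the HOP adaptor that passes clients between HSP70 and HSP90, had 1423, 1450.4 and 1364 normalised reads with MK-8617, against 2506, 2667 and 2132 with IRI alone, without overlap and with a log2 fold change of -0.78 ± 0.11 (SE, adjusted p = 0.00124). Ahsa1, which speeds the HSP90 ATPase, had 1064, 948 and 757 normalised reads with MK-8617, against 1369, 1568 and 1362 with IRI alone, without overlap and with a log2 fold change of -0.65 ± 0.14 (SE, adjusted p = 0.00815). With the length trend removed Ahsa1 was -0.41 (adjusted p = 0.0392), and with GC content removed as well it no longer passed (-0.36). The annotated principal transcript of Cdc37 has 7851 nucleotides, so its value with the length trend removed (-1.35) depends on that choice of transcript.

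FK506-binding proteins, which turn the peptide bond before proline, fell in 8 of 10 genes, against 38.7% of all tested genes. The class had 0 higher and a median of -0.53. Fkbp11 (ENSMUSG00000003355, chr15:98724366-98728198), an endoplasmic reticulum member of secretory cells, had the largest fall of all members and had 33.8, 47 and 54.2 normalised reads with MK-8617, against 159, 244 and 209.9 with IRI alone. Its level was low in every library, the groups did not overlap, the mean was 4.54-fold lower and the log2 fold change was -2.16 ± 0.26 (SE, adjusted p = 0.000663). Fkbp10, a collagen chaperone of the endoplasmic reticulum, had 284, 296 and 419 normalised reads with MK-8617, against 554, 605 and 667 with IRI alone. MK-8617 replicate 3 was the highest of its group yet under every IRI library, and the log2 fold change was -0.89 ± 0.17 (SE, adjusted p = 0.00471). Of 8 tested fibroblast and mural markers 7 fell and 1 rose, against 38.7% and 35.7% of all tested genes. Their median was -1.92, and they included Col1a1 (log2 fold change -2.17), Col1a2 (-1.79) and Acta2 (-2.04). Their summed level was 5999, 7409 and 7418 normalised reads with MK-8617, against 18845, 32795 and 28136 with IRI alone, and the part of these cells in the fall of Fkbp10 was not tested.

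Fkbp4, the FKBP52 partner of HSP90 and steroid receptors, had 2792, 2713 and 2591 normalised reads with MK-8617, against 4457, 5069 and 3666 with IRI alone. The groups did not overlap and the log2 fold change was -0.69 ± 0.13 (SE, adjusted p = 0.00448). Fkbp2, of the endoplasmic reticulum, had 868, 886 and 737 normalised reads with MK-8617, against 1290.0, 1559 and 1174 with IRI alone, without overlap and with a log2 fold change of -0.69 ± 0.13 (SE, adjusted p = 0.00509), which was 0.05 with the length trend removed. The calls among the rest were Fkbp8, a mitochondrial outer membrane protein (-0.55 ± 0.11, SE), Fkbp9 (-0.51 ± 0.12) and Fkbp14 (-0.45 ± 0.14) of the endoplasmic reticulum, and Fkbp1a, the small target of FK506 itself (-0.40 ± 0.10). Fkbp14 lost its call without each of the 6 libraries (-0.39 to -0.49), and without MK-8617 replicate 1 Fkbp9 (-0.42) and Fkbp1a (-0.37) did too, which left 5 of the class lower. Fkbp1a also lost it without MK-8617 replicate 2 (-0.42). Fkbp7 (-0.51) and the nuclear Fkbp3 (-0.28) did not pass the test.

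Of the 4 cyclophilins, the other prolyl isomerase family, 2 fell and 0 rose, against 38.7% and 35.7% of all tested genes. With the length trend removed 0 of the 4 fell, against 33.6% of all tested genes. With GC content removed as well 1 fell, against 32.9%. Ppie, a spliceosome component, had 359.6, 285 and 271 normalised reads with MK-8617, against 436, 563 and 547 with IRI alone, without overlap and with a log2 fold change of -0.76 ± 0.16 (SE, adjusted p = 0.00761), and did not pass with the length trend removed (-0.41). Ppid, the cyclophilin 40 partner of HSP90, had 613, 674 and 631 normalised reads with MK-8617, against 930.4, 997 and 711 with IRI alone, without overlap and with a log2 fold change of -0.45 ± 0.14 (SE, adjusted p = 0.0393). Its call was lost without each library other than IRI replicate 3 (-0.35 to -0.49) and with the length trend removed (-0.36). Ppic, of the secretory pathway, and Ppih, of the spliceosome, did not pass the test, with log2 fold changes of -0.44 for Ppic and -0.48 for Ppih. In all 4 the mean was lower with MK-8617, and 30.9% of Ppid windows and 41.3% of Ppih windows recur in other genes.

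Other chaperone genes, outside the symbol pattern, were also more often lower than higher. Of a list of 46, 19 were tested, and 13 fell (68.4%, against 38.7% of tested genes) and 4 rose (21.1%, against 35.7%). The list median was -0.49. With the length trend removed 8 fell (42.1%, against 33.6% of tested genes) and 2 rose, with a median of -0.325. With GC content removed as well 6 of the 19 fell, against 32.9% of tested genes, with a median of -0.27 against -0.08. Among the 13 were Tbca, a tubulin folding cofactor (log2 fold change -0.80), and Cacybp, a co-chaperone with an SGT1-like domain (-0.76). With the length trend removed Tbca was 0.04 and no longer past the threshold, while Cacybp was -0.77 and still past it. Of 14 oxidative stress genes 10 were tested, and 3 rose and 4 fell, against 35.7% and 38.7% of all tested genes. The median of these 10 was -0.01, against -0.31 over all tested genes. With the length trend removed 3 rose and 3 fell, against 22.2% and 33.6% of all tested genes. The called genes included metallothionein Mt2 (log2 fold change 5.76), haem oxygenase Hmox1 (0.94) and peroxiredoxin Prdx1 (-0.80). All 15 tested HIF target genes, of 16 in the list, rose with a median of 1.51, against 35.7% of tested genes that rose. Those with the smallest adjusted p were Bnip3 (log2 fold change 2.96), Bnip3l (1.51) and Ndrg1 (2.13).

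Library totals were not given and were inferred from the deposited FPKM, the recovered reads and annotated exon lengths, as a median over genes. They came to 16835541 to 17577794 reads per library with MK-8617 and 18620621 to 19508497 with IRI alone. Of these the listed genes held 56.7% to 57.4% with MK-8617 and 51.7% to 53.0% with IRI alone. Of the kidney's own cells, proximal tubule markers (7 tested of 18) rose in 4 and fell in 1, thick ascending limb markers (6 of 8) rose in 1 and fell in 4, distal and collecting duct markers (8 of 15) rose in 2 and fell in 2, and podocyte markers (5 of 9) rose in 3 and fell in 1. Endothelial markers (3 of 12) rose in 1 and fell in 0, macrophage and monocyte markers (12 of 15) rose in 1 and fell in 10, and neutrophil markers (2 of 9) fell in 2. Over all tested genes 35.7% rose and 38.7% fell, and no marker list was tested against these shares. With the length trend removed neither neutrophil marker passed the test, endothelial markers rose in 2, podocyte markers rose in 2 and distal markers fell in 3. In that setting 22.2% of all tested genes rose and 33.6% fell. None of 10 lymphocyte and 5 red cell markers was listed. Summed macrophage and monocyte markers were 3488 to 4177 normalised reads with MK-8617 and 3685 to 6582 with IRI alone, and these ranges overlapped. Cd14, the marker that rose, held 2295 to 2566 of these reads with MK-8617 and 649 to 752 with IRI alone. Without Cd14, singled out after its value was seen, the sums were 1193 to 1612 with MK-8617 and 2954 to 5829 with IRI alone, with no overlap, and the part of infiltrating cells in the chaperone values was not tested.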

How the data were processed

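RNA was sequenced from 6 wild-type mouse kidney samples, with groups taken from titles. For MK-8617 replicates 2 and 3 the treatment labels read MK8618 and MK8619, and the design text speaks of tumors where the labels say kidney. Alignment and counting tools named in the submitters' processing notes include HISAT2 2.0.5 and featureCounts 1.5.0-p3. The notes also name fastp for reads, CASAVA 1.8 and DESeq2 1.20.0, and the human build GRCh38 (hg38) although the deposited identifiers are mouse ones. The deposited signal values, called normalised reads here, are the authors' counts per gene, each library scaled by its size factor, and 100% of them gave back whole reads within 0.001. The authors deposited a raw read count for IRI replicate 3 alone, equal to the recovered one in 7340 of 7340 genes. FPKM values were deposited by the authors, as were a log2 fold change and a p-value per gene, raw (at most 0.0499) and adjusted. The adjustment implies 18811 genes, and the 11560 that are not listed were not analysed here. Another 13 columns without name or values were not used.

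From these files, limma 3.58.1 in R 4.3.3, with trend and robust settings, was run on log2(normalised reads + 1), so fold changes are on that scale, which understates low genes. Filtering with filterByExpr of edgeR 4.0.16 left 6961 genes and removed 379, and Benjamini-Hochberg adjustment was over 18811 genes, with a threshold of 0.05. Lengths, overlaps and gene coordinates came from GENCODE M21 (GRCm38), which 7338 of 7340 identifiers matched, and describe whole genes, the unit of counting. The length trend was removed per library as a loess curve of each gene's deviation from its mean over libraries on the log of principal transcript length. Alternatives were edgeR and DESeq2 1.42.0 on recovered reads, other scalings, filters and pseudocounts, length and GC trends, a replicate block and leaving out each library. Sums of list members use normalised reads, and SDs are over 3 libraries. A floor of 3 reads equals 0.154 to 0.178 CPM of the inferred library totals and covers counting error only. Replicates differed by more than sampling noise (chi-square 16.8 to 46.4 per degree of freedom).

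The members and gene lists were chosen with earlier results of these data known. The rule for named genes took Hspa1a, Hspa1b and Hspb1, the 12 largest rises and 12 largest falls among called members, up to 4 members of each role with the smallest adjusted p, and up to 3 genes of each other list. A gene that the rule takes is not reported here. Members named beyond it (Dnajc11, Dnajc8, Cct3, Cct4, Fkbp8, Fkbp9 and the like) were named after their values were seen.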

Additional observations from a re-analysis of the deposited data

How the results depend on the processing

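In 20 alternative settings, 21 of the 40 called members kept direction and call throughout. Of 1137 values of single members, 1004 were unchanged in direction and call, 69 lost the call, 53 gained one and 11 changed sign. The count of members lower, 33, ranged from 24 (without MK-8617 replicate 2) to 44 (p-values adjusted over the tested genes alone). Of all tested genes 2113 of 7054 and 3497 of 6961 were lower in these settings. The count higher, 7, was 12 when p-values were adjusted over the tested genes alone, against 3270 of 6961 genes. It was 4 to 8 when 1 library was left out, lowest without MK-8617 replicate 3 (1650 of 7061 genes). Every change of sign came with a length setting. With the transcript length trend removed, log2 fold changes were 0.003 for Bag1, 0.052 for Fkbp2, 0.167 for Fkbp3, 0.049 for Fkbp7, 0.355 for Dnajc19-ps and -0.039 for Dnajc16. With length and GC trends removed they were 0.05 for Bag1, 0.019 for Fkbp2, 0.031 for Fkbp3, 0.018 for Dnajc19-ps and 0.005 for Dnajc17. The median of all tested genes was -0.04 and -0.08 in these settings, against -0.31, and 27 members fell and 6 rose with both trends removed. Deviations of same-numbered libraries from their group means correlated at 0.021, 0.116 and 0.115, and those of other pairs at -0.129 to 0.02. With 3 libraries per group these values cannot settle whether replicate numbers pair the libraries. With a replicate block, 35 members fell and 8 rose, against 2747 and 2510 of all 6961 tested genes. On recovered reads edgeR called 2406 of all tested genes higher and 2676 lower, and 6 and 33 of the members, and Tcp1 missed its threshold (adjusted p = 0.0505). DESeq2 called 8 members higher and 37 lower, against 2606 and 2855 of all 6961 tested genes. Hspb2, Fkbp11 and Hspa2 rest on few reads, which limits their precision.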
